A study of Rattus norvegicus with 16 samples.

Results

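The transcript response of normal distal colon to dextran sodium sulfate (DSS) was measured in rats that were wild type for Apc, on 8 of the 16 arrays of the series. All of them came from the F1 generation of ACI crossed to F344, were male, and were 97 days old when the tissue was taken. Rats 14, 18, 22 and 26 had been given 4% DSS in drinking water from day 40 to day 47 and again from day 54 to day 61. Rats 13, 17, 21 and 25 were untreated. The tissue was therefore collected 36 days after the last DSS, so acute exposure itself was not sampled. The other 8 arrays came from F1 rats of the same cross that were heterozygous for the Pirc allele of Apc, 4 of them given DSS, and serve here as a second comparison. The tissue was labelled as normal distal colon. The study's methods describe scraping the lumen of untreated animals with a blade, so each array averages epithelium and whatever cells came off with it. In such bulk tissue, more cells of a type and more RNA per cell cannot be told apart.

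DSS is a sulfated polysaccharide that damages the lining of the colon and lets bacteria and their products reach the tissue below. Damaged epithelium and resident macrophages then release interleukins and chemokines, which draw neutrophils, monocytes and lymphocytes, while fibroblasts lay down matrix and the epithelium closes the wound. The distal colon ends at the anal canal, which is lined by stratified squamous epithelium and not by crypts.

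Levels are given as log2 of the Agilent processed signal relative to the 75th percentile of the array, so 0 is the 75th percentile and each unit is a factor of 2. Values for single rats are listed in the order 13, 17, 21 and 25 for untreated rats and 14, 18, 22 and 26 for DSS rats. A probe was called when its limma adjusted p was 0.05 or less and the change was at least a factor of 2. Of 30367 probes, 841 (2.77%) were called, 719 higher and 122 lower after DSS. Quantile normalization, which lowered the median difference of all probes from 0.09 to -0.04, gave 563 higher and 213 lower, so that the share of higher calls went from 85.5% to 72.6%. With 1 probe per gene symbol, 481 of 15159 genes (3.17%) were called higher and 81 (0.534%) lower, and the median difference of all genes was 0.08. Of the 562 called genes, 496 had no overlap between the 4 DSS and the 4 untreated rats. The call itself selects for such separation, so this count is no separate support for the calls. Background correction by normexp gave 235 called probes and the 8 wild type arrays fitted alone gave 402, and 53 and 64 of the 106 called genes named here kept their call under them. Without DSS rat 14 the number of called probes was 375, without DSS rat 18 it was 446, and without untreated rat 17 or 21 it was 456 or 503. Slides 1 and 2 each held 2 rats of each group, with DSS rats 14 and 18 on slide 1. Each group lay in its own array column, so column and treatment cannot be told apart. The 75th percentile signal was 1086 to 1249.5 on DSS arrays and 1248 to 1433 on untreated arrays, and its part in the differences was not tested.

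The label of distal colon was checked against transcripts that mark it. Cdx2, Hoxd13, Hoxb13, Car1, Slc26a3, Vil1 and Epcam were well above background on all 8 arrays, and none was called. Hoxb13, a homeobox gene of the hindgut end, lay at 5.69 to 6.04 in untreated and 5.61 to 5.84 in DSS rats. Of the markers of neighbouring organs, Pbsn, Svs4 and Svs5 of prostate and seminal vesicle, Prss1 of pancreas and Upk2 of urothelium were not well above background on any of the 8 arrays. Upk1a, Upk1b and Upk3a of urothelium and Cela1 of pancreas were well above background on all 8, Cpa1 of pancreas on 2 DSS arrays, and none of these was called.

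The promoters of 3 chemokine and 3 interferon-response genes that were called higher are shown because a short motif recurs in them. The sequences are RefSeq promoters of GRCr8, each running from 250 bases before to 50 bases after the start of the gene, read in the direction of the gene. They were Cxcl1 at chr14:17479272-17479571 (minus strand), Cxcl2 at chr14:17467206-17467505 (minus strand), Cxcl11 at chr14:15973478-15973777 (plus strand), Ifit3 at chr1:241527076-241527375 (plus strand), Oasl2 at chr12:47383136-47383435 (minus strand) and Rsad2 at chr6:48788071-48788370 (minus strand). Capitals in the first 3 mark GGGAA followed, after any 3 bases, by CC on either strand, letters of the kind bound by NF-kB (called the kB motif). Capitals in the last 3 mark GAAA followed, after any 2 bases, by GAAA on either strand, the core of the interferon-stimulated response element (ISRE). In Cxcl1 the second block in capitals holds a match on each strand.
Cxcl1: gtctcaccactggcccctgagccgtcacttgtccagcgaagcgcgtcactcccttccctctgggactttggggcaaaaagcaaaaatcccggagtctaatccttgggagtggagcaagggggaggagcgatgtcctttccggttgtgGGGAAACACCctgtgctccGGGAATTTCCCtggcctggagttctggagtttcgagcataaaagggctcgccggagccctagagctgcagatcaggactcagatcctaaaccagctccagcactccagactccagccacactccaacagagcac
Cxcl2: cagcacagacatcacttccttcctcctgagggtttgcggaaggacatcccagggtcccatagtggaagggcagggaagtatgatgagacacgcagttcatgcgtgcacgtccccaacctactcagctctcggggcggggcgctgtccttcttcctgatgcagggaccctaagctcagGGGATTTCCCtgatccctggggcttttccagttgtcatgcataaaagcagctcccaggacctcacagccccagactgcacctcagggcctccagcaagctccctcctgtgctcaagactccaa
Cxcl11: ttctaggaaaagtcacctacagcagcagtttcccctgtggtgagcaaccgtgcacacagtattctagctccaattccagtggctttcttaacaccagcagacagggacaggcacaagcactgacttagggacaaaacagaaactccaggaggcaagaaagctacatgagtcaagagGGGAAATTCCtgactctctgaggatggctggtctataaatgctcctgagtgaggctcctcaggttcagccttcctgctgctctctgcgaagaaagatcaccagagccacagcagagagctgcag
Ifit3: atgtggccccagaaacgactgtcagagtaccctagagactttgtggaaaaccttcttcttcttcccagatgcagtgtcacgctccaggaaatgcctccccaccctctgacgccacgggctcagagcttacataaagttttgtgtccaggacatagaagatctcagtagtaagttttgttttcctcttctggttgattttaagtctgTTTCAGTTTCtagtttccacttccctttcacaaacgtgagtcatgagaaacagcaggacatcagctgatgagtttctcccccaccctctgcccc
Oasl2: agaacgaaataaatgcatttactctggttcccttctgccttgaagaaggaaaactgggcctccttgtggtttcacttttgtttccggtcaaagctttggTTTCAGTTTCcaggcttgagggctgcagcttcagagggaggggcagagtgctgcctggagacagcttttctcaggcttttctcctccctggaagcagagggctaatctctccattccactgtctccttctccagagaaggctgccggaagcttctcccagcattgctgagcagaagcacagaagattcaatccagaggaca
Rsad2: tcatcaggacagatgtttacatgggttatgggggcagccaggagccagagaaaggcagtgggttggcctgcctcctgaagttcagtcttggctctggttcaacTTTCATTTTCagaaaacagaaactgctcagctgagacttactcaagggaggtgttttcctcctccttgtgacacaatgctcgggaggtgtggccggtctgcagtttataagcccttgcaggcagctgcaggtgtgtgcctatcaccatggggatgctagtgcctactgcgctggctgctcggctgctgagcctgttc
The kB motif occurred in 6.01% of all 33469 promoters. Of the 13 chemokine and chemokine receptor genes called higher, 9 had a promoter in the table, and 5 of these held it, namely Cxcl1, Cxcl2, Cxcl6, Cxcl9 and Cxcl11. Over all 24 measured members of that list with a promoter, 9 held it, including the uncalled Cxcl10, Ccl19, Ccl20 and Ccl24. Of the inflammatory cytokine genes called higher, 4 had a promoter in the table and 0 held the kB motif, as did 3 of the 14 measured ones. Among interferon-response genes it was in 0 of the 5 called and 5 of the 27 measured. The ISRE motif occurred in 3.92% of all promoters. It was present in all 5 called interferon-response genes with a promoter in the table, Irf7, Oasl2, Ifit3, Gbp2 and Rsad2, and in 17 of the 27 measured members with one. Among all genes called higher with a promoter, 36 of 346 (10.4%) held the kB motif and 24 (6.94%) the ISRE motif. Over all measured genes with a promoter, 803 of 12389 (6.48%) held the kB motif and 437 (3.53%) the ISRE motif. Among genes called lower, 3 of 70 (4.29%) held each motif. A match describes letters in this window and not a bound site.

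Interleukin-1 and tumor necrosis factor transcripts were higher in all 4 DSS rats than in any untreated rat, and the chemokines that attract neutrophils and monocytes rose with them. Il1b, the secreted interleukin-1 of activated macrophages, lay at -5.67, -6.37, -6.41 and -5.19 in untreated rats and at 0.37, 1.02, -3.64 and -3.03 in DSS rats. Rats 14 and 18 stood far above rats 22 and 26, and the groups did not overlap (log2 difference 4.59, SE 0.89, adjusted p = 0.0114, 24.1-fold). Within slides the difference was 6.72 on slide 1 and 2.47 on slide 2. Il1a, the membrane and alarm form of the cytokine, rose in the same 4 rats (log2 difference 3.91, adjusted p = 0.0114), as did the decoy receptor Il1r2 (2.82, adjusted p = 0.0145). Tnf, the main macrophage cytokine of acute inflammation, lay at -5.22, -5.90, -6.11 and -6.01 in untreated and -2.27, -2.81, -3.44 and -4.17 in DSS rats (log2 difference 2.64, SE 0.52, adjusted p = 0.0123). Tgfb1, which restrains inflammation and drives matrix production, was higher by 2.15 (adjusted p = 7.11e-04). Il12a, a subunit of interleukin-12, fell: it was well above background on all 4 untreated arrays and on none of the DSS arrays (at least 2.09-fold lower, adjusted p = 0.00931). Of 22 measured cytokine genes, 5 were called higher, 1 lower and 16 not called, with a median difference of 0.50. Without rat 14, 3 were called higher, and the calls of Tnf and Il1r2 were among those lost. With normexp none of the 22 was called, and with the wild type arrays alone 3 were called higher.

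Cxcl2, a ligand of the neutrophil receptor Cxcr2, was not well above background in any untreated rat, at -8.61, -8.22, -9.25 and -8.73, and lay at 0.34, 1.08, -4.53 and -5.01 after DSS. This was at least 29.5-fold higher (adjusted p = 0.00675), where the mean of the DSS rats is set against the mean, over the 4 untreated arrays, of the lowest signal that counted as well above background on each, or of the probe itself where higher. Bounds below were formed in the same way. A rat of the higher group that was not above background entered the mean at its measured signal, so such a bound is not strict. Rats 14 and 18 were above the 75th percentile of the array and rats 22 and 26 far below it. Cxcl1, a second ligand of Cxcr2, went from -9.23, -8.76, -8.26 and -8.68 to -2.62, -2.33, -3.41 and -5.49, at least 10.9-fold higher (adjusted p = 0.00218). Rat 26 was the lowest of the DSS rats for Cxcl1 and still lay above all untreated rats. Ccl3, a macrophage chemokine, was at least 7.80-fold higher (adjusted p = 0.0131), with -6.74 to -1.48 across DSS rats, and its call was lost without rat 14. Ccl2, which attracts monocytes, lay at -6.05, -6.98, -7.17 and -5.81 in untreated and -1.68, -1.82, -4.13 and -3.02 in DSS rats (log2 difference 3.84, SE 0.64, adjusted p = 0.00533), and its neighbour in function Ccl7 was at least 3.31-fold higher (adjusted p = 0.00222). The eosinophil attractant Ccl11 rose by 3.68 on the log2 scale (adjusted p = 0.0195). Cxcl9 and Cxcl11, interferon-induced ligands of Cxcr3, rose by 1.36 and 1.71 (adjusted p = 0.0459 and 0.0186). Receptors that rose included Cxcr4 (1.65) and, on the neutrophil list, Cxcr2 itself (1.96, adjusted p = 0.0199). In all, 13 of 31 measured chemokine genes were called higher (41.9%, against 3.17% of all genes) and none lower, with a median of 1.36. This list and those below were chosen with earlier results of these data known, so their shares are no test of enrichment. The count of called chemokine genes was 5 without DSS rat 14 and 8 without DSS rat 18 or untreated rat 17. It was 2 with normexp, with a median of 0.64, and 6 with a common floor for dim probes or with the wild type arrays alone. Il1a and Ccl2 were well above background on 2 of the 4 untreated arrays and Tgfb1 and Ccl11 on 1, so their log2 differences are partly set against background.

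**Figure D1:**
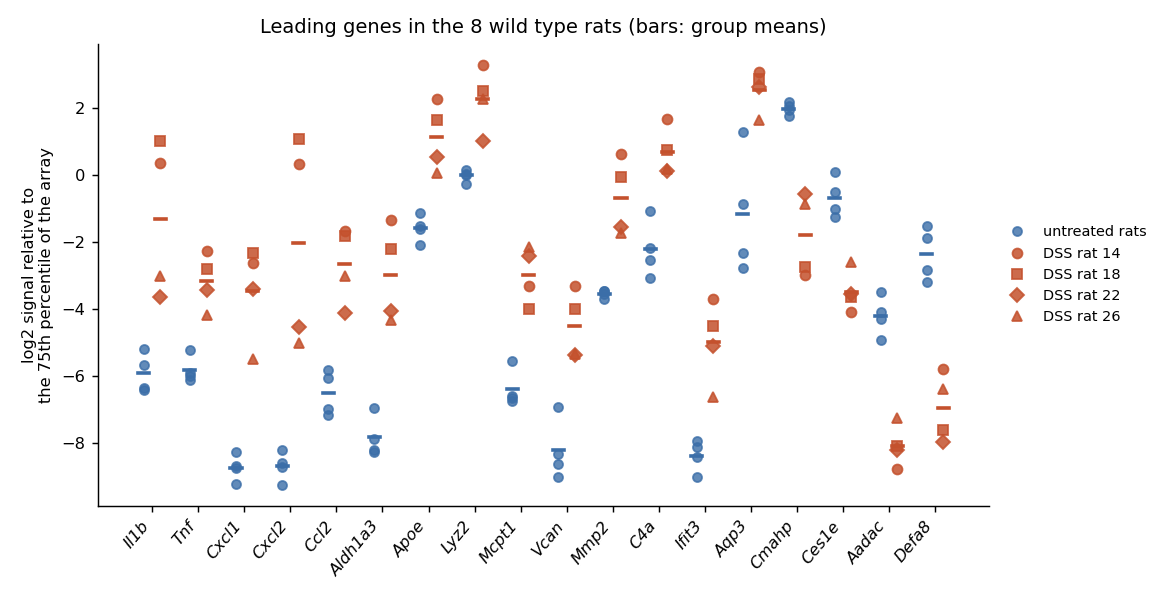
Log2 signal relative to the 75th percentile of the array (vertical axis) for 18 genes (horizontal axis) in the 4 untreated (blue) and the 4 DSS rats (red, 1 marker shape per rat), with bars at the group means. For Cxcl2 the untreated rats lie at -9.25 to -8.22 and the DSS rats at -5.01 to 1.08, and for Aadac the order is the other way round, with -4.91 to -3.48 and -8.78 to -7.25.

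Macrophage transcripts were higher after DSS, with 14 of 26 measured members of the list called higher (53.8%) and a median of 1.25. Each of the 14 lay above all untreated rats in each of the 4 DSS rats, and rat 14 was the highest for 13 of them. The call selects for such separation, which 496 of the 562 called genes showed, so it is no separate support. Of all 26 members, 23, 21, 19 and 17 lay above all untreated rats in rats 14, 18, 22 and 26. Apoe, the lipid carrier made by tissue macrophages, lay at -1.62, -1.13, -2.09 and -1.52 in untreated and 2.28, 1.65, 0.54 and 0.05 in DSS rats (log2 difference 2.72, SE 0.37, adjusted p = 0.00222). Lyz2, macrophage lysozyme, went from -0.25, 0.04, 0.16 and 0.00 to 3.29, 2.52, 1.02 and 2.28 (log2 difference 2.29, SE 0.39, adjusted p = 0.00556). The complement subunits C1qa (1.54) and C1qb (1.15), the signalling adaptors Tyrobp (1.68) and Fcer1g (1.67), the Fc receptors Fcgr1a (1.73) and Fcgr2b (1.85), and Cd68 (1.36) and Aif1 (1.40) rose by smaller log2 differences. Trem2, a lipid-sensing receptor of macrophages, rose by 1.89 (adjusted p = 0.0200), with rat 26 at -5.24 close to the highest untreated rat at -5.45. Its call was lost without DSS rats 14 or 18 or untreated rats 13, 17 or 21, and the list had 8 members called without rat 14 and 7 with the wild type arrays alone. Mnda and Bcl2a1, transcripts of myeloid cells that are not on the list, were above background in the DSS rats and in none of the untreated rats, at least 4.19-fold and 4.57-fold higher (adjusted p = 0.00178 and 0.00178).

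Neutrophil transcripts moved less evenly. S100a8 and S100a9, the subunits of calprotectin, rose by 2.57 and 2.06 (adjusted p = 0.0309 and 0.0277). S100a8 lay at -2.52, -2.50, -2.89 and -2.01 in untreated and 0.04, 0.60, 1.63 and -1.93 in DSS rats, so rat 26 was next to the highest untreated rat, and the gene is also made by squamous epithelium. Itgam, an integrin of neutrophils and macrophages, rose by 1.93 (adjusted p = 0.0124), with 1 of 4 untreated arrays well above background. Of 17 measured members 4 were called higher (23.5%). No member kept its call without rat 14, 1 did without rat 18, and 2 without any one of the untreated rats, as with normexp or the wild type arrays alone. In the list of antimicrobial and oxidant defence, 6 of 25 were called higher, with 2 without DSS rat 14 or untreated rat 13 and 3 without DSS rat 18 or untreated rats 17 or 21 or with the wild type arrays alone. Pla2g2a, a secreted phospholipase that kills bacteria, lay at -0.54, -1.44, -0.98 and -1.19 and 2.28, 1.19, 1.08 and 1.56 (log2 difference 2.57, SE 0.40, adjusted p = 0.00402). Nox1, the NADPH oxidase of colon epithelium, rose by 2.33 (adjusted p = 0.0184), and Duox2, its relative at the apical surface, by 1.05 (adjusted p = 0.0268). Lcn2, Nos2 and Reg3a, which are typical of acute colitis, were not called, with log2 differences of 0.50, 0.58 and 0.61 and adjusted p of 0.536, 0.346 and 0.398.

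Mast cell proteases rose after DSS. Mcpt1, a chymase of mast cells, lay at -5.55, -6.73, -6.67 and -6.59 in untreated and -3.32, -4.01, -2.42 and -2.14 in DSS rats (log2 difference 3.41, SE 0.47, adjusted p = 0.00235), with rats 22 and 26 the highest. The proteases Mcpt8 (1.33, adjusted p = 0.00530), Mcpt9 (1.09, adjusted p = 0.0448) and Mcpt10 (1.32, adjusted p = 0.00837) also rose, and these paralogs can share signal on an array. In Pirc rats their differences were 0.05, -0.10 and -0.22, and the difference between the genotypes did not pass the threshold for any of the 3 (adjusted p = 0.178, 0.321 and 0.121). Il1rl1, the interleukin-33 receptor, was at least 2.80-fold higher, with 3 of 4 DSS rats above background, while its other probe differed by 0.09 and was not called. In total 7 of 17 measured members of the mast cell and eosinophil list were called higher (41.2%). That count was 3 without DSS rats 14 or 18 or untreated rats 17 or 21, 4 without untreated rats 13 or 25, and 2 with normexp.

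Lymphocyte transcripts changed in smaller numbers. In the T and natural killer cell list, 5 of 28 were called higher (17.9%), and 3 without DSS rats 14 or 18 or untreated rats 13, 17 or 21. It was 3 with a common floor or quantile normalization, 2 with the wild type arrays alone and none with normexp. The list's median was 0.48. Icos, a costimulator of activated T cells, went from -8.35, -8.35, -8.42 and -8.56 to -5.59, -4.85, -6.73 and -7.40 (at least 1.71-fold higher, adjusted p = 0.00857), and Il2rb, an interleukin-2 receptor chain, from -5.48 to -5.31 in untreated to -4.73 to -3.65 in DSS rats (adjusted p = 0.00333). The cytotoxic genes Gzma (1.38) and Nkg7 (1.12) rose as well. Among B and plasma cell genes, 2 of 16 were called (12.5%, against 3.17% of all genes called higher), Fcer2 (2.30, adjusted p = 0.00857) and Prdm1 (2.23, adjusted p = 0.0342). The count was 1 without DSS rats 14 or 18 or untreated rats 13 or 17, with normexp or with the wild type arrays alone. The mean level of that list was -4.97 to -4.66 in untreated rats and -3.92, -4.05, -4.70 and -3.68 in DSS rats, so rat 26 was the highest and rat 22 lay within the untreated range. The other probe of Prdm1 differed by 2.02 and was not called. Of 16 genes of class II antigen presentation 4 were called higher, RT1-Da, RT1-Db1, RT1-Bb and Cd74, by 1.16, 1.09, 1.04 and 1.04 on the log2 scale. The count of called class II genes was 1 without DSS rat 14 and 2 without DSS rat 26 or untreated rat 13 or with the wild type arrays alone.

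A part of the genes induced by interferon rose after DSS. Ifit3, an inhibitor of viral translation, was not well above background in untreated rats, at -9.02, -8.41, -7.95 and -8.13, and lay at -3.71, -4.49, -5.11 and -6.62 in DSS rats (at least 3.81-fold higher, adjusted p = 0.00926). Oasl2, of the oligoadenylate synthetase family, went from -4.02, -3.20, -2.69 and -3.40 to -0.79, -1.61, -1.40 and -0.86 (log2 difference 2.17, SE 0.35, adjusted p = 0.00471). Rsad2, the antiviral viperin, lay at -4.89, -4.13, -3.82 and -3.86 and -0.82, -2.36, -2.24 and -1.71 (log2 difference 2.39, SE 0.52, adjusted p = 0.0209), and its call was lost without DSS rat 14 or untreated rats 13 or 17. Rat 14 was the highest of the DSS rats for each of these 3. Ido1, which degrades tryptophan, rose by 2.51 (adjusted p = 0.00178), the GTPase Gbp2 by 2.14, the ubiquitin-like Isg15 by 2.07 and the transcription factor Irf7 by 1.20. These 7 were the called members of 35 (20%), and the count was 6 or 7 with any rat left out. The list's median was 0.26. In Pirc rats Rsad2, Oasl2 and Irf7 differed by 0.90, 0.96 and 0.37, and the difference between genotypes did not pass for them (adjusted p = 0.495, 0.408 and 0.390).

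Complement genes were called in 10 of 20 cases (50%), all higher, with a median of 1.34. C1s, the protease of the first complement component, lay at -6.84, -6.57, -6.54 and -4.80 in untreated and -1.63, -2.83, -4.31 and -3.42 in DSS rats (log2 difference 3.14, SE 0.51, adjusted p = 0.00508), where untreated rat 25 stood above its group. C4a, a source of the C4 anaphylatoxin, went from -1.09, -3.06, -2.53 and -2.17 to 1.68, 0.74, 0.12 and 0.17 (log2 difference 2.89, SE 0.40, adjusted p = 0.00222). The inhibitors Serping1 (2.23) and Cd55 (1.75) rose together with C1r (1.70) and the receptor C5ar1 (2.25, above background on 1 of 4 untreated arrays), so proteases and inhibitors both rose. The count was 6 without DSS rat 14 or untreated rats 21 or 25, 5 without DSS rat 18, and 3 with the wild type arrays alone.

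Connective tissue genes gave the longest set of calls among the lists, 20 of 37 measured members of fibroblasts and matrix (54.1%), all higher, with a median of 1.93. Vcan, the large proteoglycan of provisional matrix, was not well above background in any untreated rat, at -8.32, -8.63, -9.01 and -6.93, and lay at -3.31, -3.99, -5.39 and -5.33 in DSS rats (at least 5.31-fold higher, adjusted p = 0.00323). Tnc, a glycoprotein of healing wounds, was at least 4.36-fold higher (adjusted p = 0.00521), and Col7a1, the anchoring fibril collagen beneath stratified epithelia, at least 4.72-fold (adjusted p = 0.00466). The interstitial collagens Col1a1 and Col3a1 rose by 2.18 and 1.98 (adjusted p = 0.0266 and 0.0437), the basement membrane collagens Col4a1 and Col18a1 by 2.53 and 2.70, Fn1 by 1.98, Sparc by 2.20, and the fibroblast receptors Pdgfra and Pdgfrb by 2.15 and 1.83. Rat 14 was the highest DSS rat for all 20 called members, and rat 22 lay above every untreated rat for 15 of them. Mean levels of the list were -5.09 to -4.57 in untreated rats, the highest being rat 25, and -2.18, -2.89, -4.03 and -3.68 in DSS rats. Without DSS rats 14 or 18, 7 members were called, without untreated rats 17 or 21, 9, and without untreated rat 13, 13. With normexp 8 were called, with a median of 0.85, and with the wild type arrays alone 6. Connective tissue growth factor, Ccn2, was at -8.94, -8.63, -9.11 and -5.75 in untreated rats and -4.22, -5.68, -6.89 and -4.58 in DSS rats, with overlap because of rat 25, which alone of the untreated rats was well above background (log2 difference 2.77, SE 0.71, adjusted p = 0.0444).

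Enzymes that remodel the matrix rose alongside. Mmp2, a gelatinase of stromal cells, lay at -3.54, -3.47, -3.69 and -3.47 in untreated rats and 0.63, -0.05, -1.54 and -1.73 in DSS rats (log2 difference 2.87, SE 0.42, adjusted p = 0.00323). Mmp12, macrophage elastase, was above background in the DSS rats and in none of the untreated rats, at least 3.88-fold higher (adjusted p = 0.00421). Adamts1 rose by 2.79 (adjusted p = 0.0119), Mmp7, an epithelial enzyme of injured gut, by 2.73 (adjusted p = 0.00620), and Plat, tissue plasminogen activator, by 2.37 (adjusted p = 0.0192). These 5 were the called members of 23. Endothelial adhesion molecules rose too, Vcam1 from -6.78, -7.69, -8.29 and -5.60 to -2.97, -3.83, -5.19 and -3.22 (log2 difference 3.29, SE 0.69, adjusted p = 0.0168) and Icam1 from -5.96 to -5.37 in untreated to -4.10 to -3.08 in DSS rats (log2 difference 1.99, SE 0.28, adjusted p = 0.00250). Vcam1 was well above background on 2 of the 4 untreated arrays. Lyve1 of lymphatic vessels (2.63, above background on 1 untreated array), Plvap (1.57) and Emcn, which was above background on 1 of the 8 arrays and has no fold here, completed the 5 called of 25 endothelial genes. Of these, 2 were called without DSS rat 14 or with normexp, 3 without untreated rat 21 and 1 with the wild type arrays alone.

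Other tissues of the gut wall were checked because their cells could be sampled with the mucosa. The mean of 20 smooth muscle genes was -3.99 to -2.50 in untreated rats, with rat 25 the highest, and -3.09, -3.21, -3.57 and -1.99 in DSS rats, with rat 26 the highest. Synm and Flna were called higher by 2.33 and 2.23, neither of them without rat 14 or with the wild type arrays alone, and the other 18 were not called. The other probe of Synm differed by 0.07 and was not called. Nerve and glia genes had 2 of 24 called, Ednrb (2.64, above background on 2 untreated arrays) and Stmn2 (2.15), with 1 without DSS rats 14 or 18 or untreated rats 17 or 21 or with the wild type arrays alone, and none with normexp. The other probe of Stmn2 differed by 0.89 and was not called. Fat cell genes had 2 of 9 called, Fabp4 and Cfd. Fabp4, a fatty acid carrier of fat cells, macrophages and endothelium, lay at -5.54, -6.07, -6.06 and -6.31 and 0.06, -1.54, -3.0 and -2.70 (log2 difference 4.20, SE 0.72, adjusted p = 0.00592), while the list's median was 0.62. Cfd, the complement protease adipsin, rose by 1.82 (adjusted p = 0.0142), and not without rat 18, and 1 of the 9 was called with the wild type arrays alone. The called shares were 10% for smooth muscle, 8.33% for nerve and glia and 22.2% for fat cells, against 3.17% of all genes called higher. Each share rests on 2 calls. The part of these cells in the other rises was not tested.

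**Figure D2:**
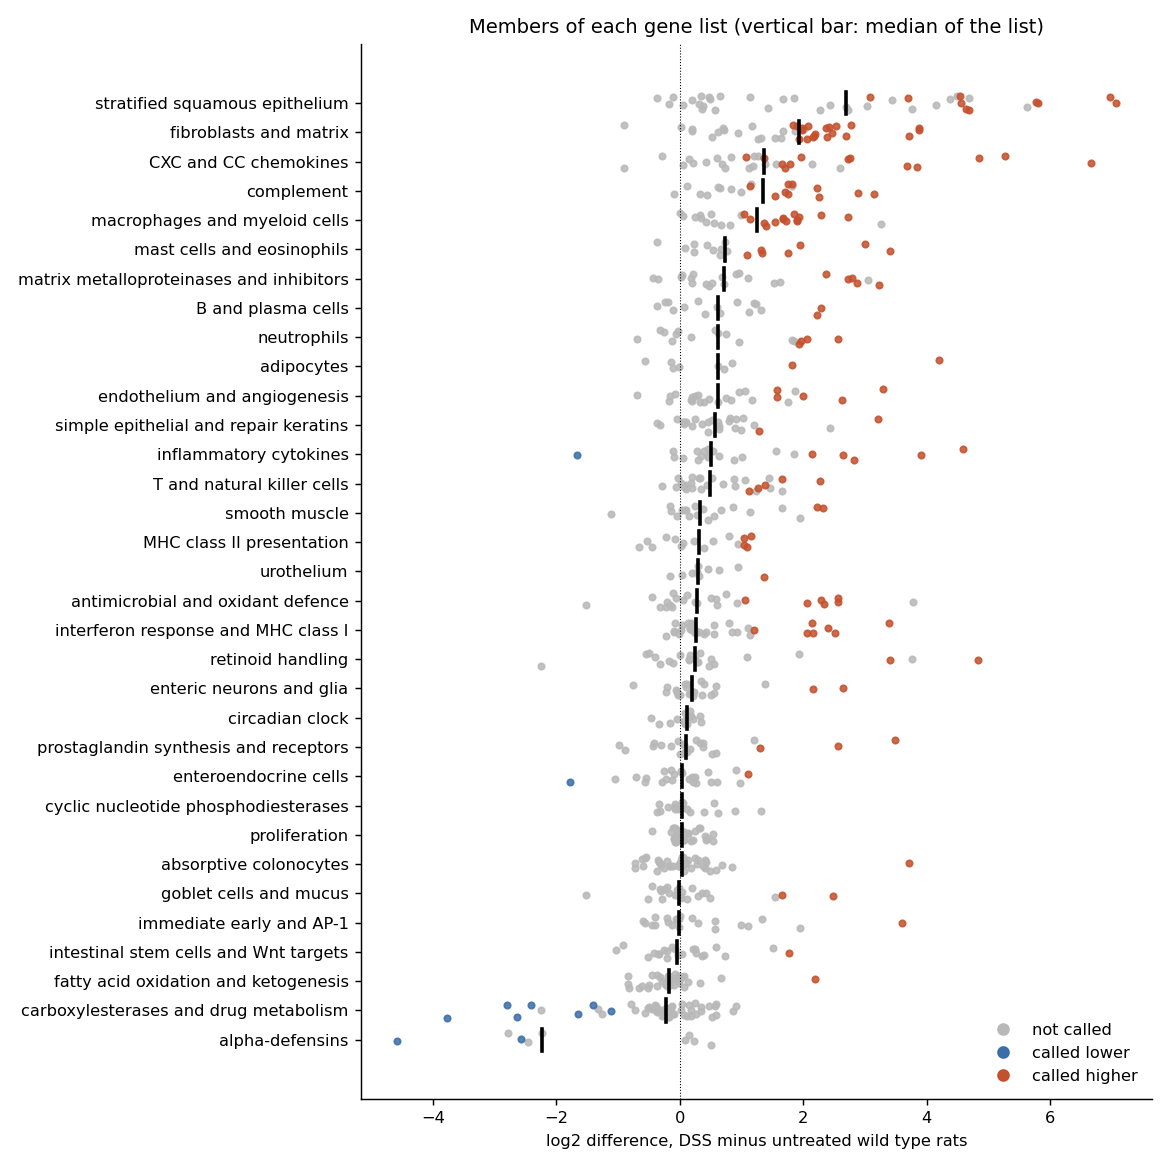
Log2 difference between DSS and untreated wild type rats (horizontal axis) of each measured member of 33 gene lists (vertical axis, ordered by median), with called members in red (higher) or blue (lower), others in grey and a bar at each median. Medians run from -2.23 for alpha-defensins to 2.69 for stratified squamous epithelium, and the lists of proliferation, clock and phosphodiesterase genes hold no called member.

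Few genes of the specialised colon epithelium were called. Of 40 genes of absorptive colonocytes, 1 was called (2.50%, near the 3.17% of all genes), and the median was 0.03. At an unadjusted limma p under 0.05 there were 8 of the 40, against 5106 of all 30367 probes. The called gene, not called with the wild type arrays alone, was Aqp3, a water and glycerol channel of the basolateral membrane that is also strong in squamous epithelium, at 1.30, -2.79, -0.85 and -2.34 in untreated and 3.06, 2.86, 2.63 and 1.64 in DSS rats (log2 difference 3.72, SE 0.70, adjusted p = 0.00970, 13.1-fold). Its slide values were 3.71 on slide 1 and 3.73 on slide 2. The chloride exchanger Slc26a3 and the carbonic anhydrase Car1 differed by 0.24 and -0.57 with adjusted p of 0.804 and 0.789. Goblet cell and mucus genes had 2 of 25 called (8%, against 3.17% of all genes called higher). They were Tff1 (2.49, adjusted p = 0.0431), a trefoil peptide that is more typical of stomach, and the sialyltransferase St3gal4 (1.66, adjusted p = 0.0285). Neither stayed called without DSS rats 14 or 18 or untreated rats 17, 21 or 25, and 1 did without untreated rat 13. With the wild type arrays alone neither was called. Enteroendocrine genes had Cck called higher (1.10, adjusted p = 0.0210) and the glucagon receptor Gcgr called lower (-1.79, adjusted p = 0.00159) of 25. Each was 4% of the list, against 3.17% of all genes called higher and 0.534% called lower. Gcgr lay at -2.87, -2.66, -2.61 and -3.03 and -4.89, -4.43, -4.02 and -4.97, a narrow separation that held without each rat in turn. The calls of Cck, whose groups overlapped, were lost without DSS rats 14, 18 or 22 or untreated rats 17, 21 or 25. Stem cell and Wnt target genes had 1 of 22 called (4.55%, near the 3.17% of all genes called higher). It was Cd44, the hyaluronan receptor, from -3.21 to -2.55 in untreated to -1.58 to -0.46 in DSS rats (log2 difference 1.78, SE 0.33, adjusted p = 0.00959). Of its other probes, 1 differed by 0.10 and was not called, and those at 1.71 and 1.90 were called higher.

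Proliferation genes were not called in any of 33 cases by limma, with a median of 0.04 and all 33 probes above background on all 8 arrays. Of the 33, 0 had an unadjusted limma p under 0.05, against 5106 of all 30367 probes. Rat 26 was the highest of the DSS rats for 29 of the 33 and lay above all untreated rats for 18. Genes of epithelial repair had 2 of 26 called (7.69%, against 3.17% of all genes called higher). Nrg1, a stromal ligand of ErbB receptors, above background on 2 of 4 untreated arrays, lay at -6.06, -7.41, -7.05 and -6.65 and -3.02, -2.98, -4.45 and -3.89 (log2 difference 3.21, SE 0.38, adjusted p = 0.00154), and Clu, clusterin, which marks regenerating crypts, at -3.11, -3.01, -3.19 and -3.04 and -1.58, -1.82, -2.31 and -1.52 (log2 difference 1.28, SE 0.22, adjusted p = 0.00603). Both kept the call without each of the 8 rats in turn.

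Genes of stratified squamous epithelium had the highest median of the 33 lists, and 1 DSS rat did not share the rise. Krt13, a keratin of internal squamous linings, lay at -8.32, -8.65, -7.89 and -8.36 in untreated and -0.42, 0.00, 3.32 and -8.26 in DSS rats, so 3 rats were far above and rat 26 was within the untreated range. The mean of the DSS rats, which includes rat 26 at background, was at least 47.6-fold higher (adjusted p = 0.0335). Krt1, a keratin of cornifying layers, had -9.48, -8.96, -9.34 and -8.81 and -3.12, -0.09, 3.86 and -8.92 (at least 28.8-fold higher, adjusted p = 0.0461). Krt6c, of the wound keratins, had -5.26, -5.68, -5.75 and -6.00 and 0.07, 1.50, 3.97 and -5.16 (log2 difference 5.77, SE 1.29, adjusted p = 0.0231). Krt17 was at least 17-fold higher (adjusted p = 0.0275). The envelope protein Sprr3 went from -5.14, -5.15, -5.30 and -5.12 to -0.77, 0.39, 3.28 and -5.03 (log2 difference 4.64, SE 1.16, adjusted p = 0.0389), and the fatty acid carrier Fabp5 from -0.30, -1.05, -1.59 and -1.16 to 2.05, 2.67, 5.23 and 0.76 (log2 difference 3.70, SE 0.69, adjusted p = 0.00926). Klk10, above background on 1 untreated array, and Tgm1 rose by 4.56 and 3.09, and Scel and Calml3 were at least 6.20-fold and 11.6-fold higher, which makes 10 called of 39 (25.6%), with a median of 2.69. For each of the 10 called genes rat 22 was the highest, and for 5 of them rat 26 lay above all untreated rats. Mean levels of the list were -4.75 to -4.57 in untreated rats and -2.39, -1.62, 0.46 and -4.50 in DSS rats.

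The basal keratins Krt5 and Krt14 had the same order, with -4.26, -1.92, 0.82 and -5.05 and -2.89, 0.27, 3.07 and -3.94 in DSS rats, and were not called (2.27, adjusted p = 0.237 and 3.03, adjusted p = 0.164). Calls in the list changed when single rats were left out. Without rat 26, 22 members were called. Without DSS rats 14 or 18 or untreated rats 17, 21 or 25 it was 1, as in the fit on the wild type arrays alone. Without untreated rat 13 it was 3, without DSS rat 22 or with a common floor it was 4, and with normexp it was 2. Uroplakins, which mark urothelium, differed by 0.30 (Upk1a), 0.04 (Upk1b), 0.20 (Upk2) and 0.28 (Upk3a), none called. Of the 10 measured urothelial genes the single call was Gata3 (adjusted p = 0.0496). It exceeded background in a single DSS rat and was lost in 7 of the 8 fits with 1 rat left out. The source of the squamous transcripts was not tested.

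**Figure D3:**
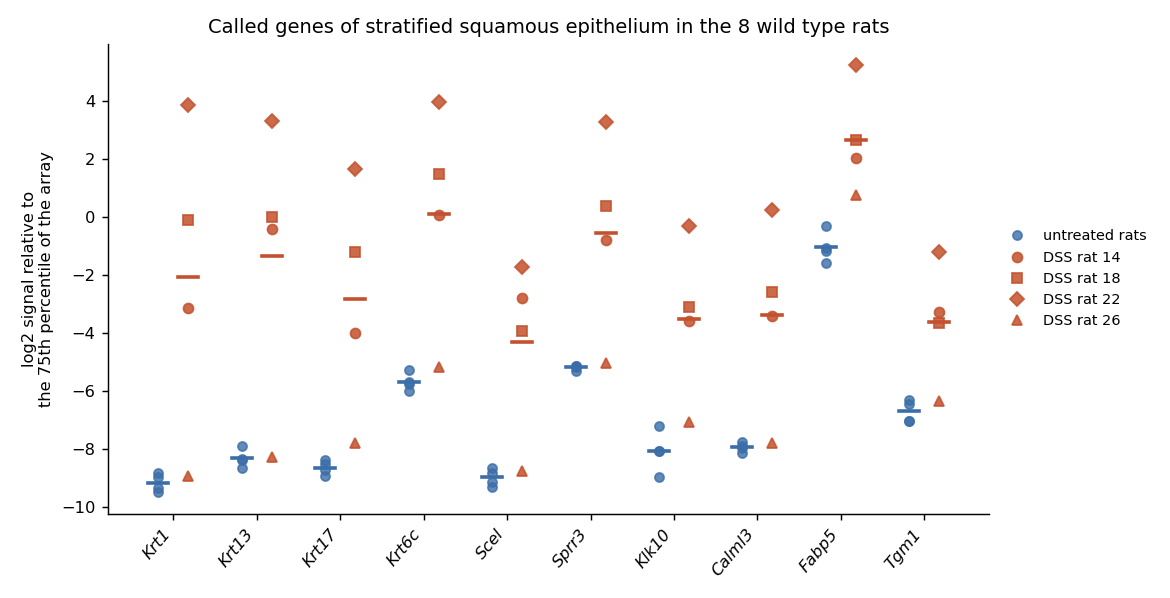
Log2 signal relative to the 75th percentile of the array for the 10 called squamous genes in untreated (blue) and DSS rats (red, 1 marker per rat), with bars at the group means. Rat 22 is the highest for each gene, rats 14 and 18 lie between, and rat 26 lies at or just above the untreated rats except for Fabp5, where it is at 0.76 against a highest untreated value of -0.30.

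The order of the DSS rats was not the same for squamous and for inflammatory genes. Rat 22, the highest in squamous genes, had the lowest mean of the 4 for chemokines (-2.82, -3.13, -4.14 and -3.60), lymphocytes, and fibroblasts and matrix, and rat 14 the highest for chemokines, macrophages (-1.63, -2.29, -2.88 and -3.04) and matrix. Rats 14 and 18 shared slide 1, so for these 4 animals the slide and the strength of the inflammatory genes cannot be told apart. The untreated rats of the 2 slides had list means for chemokines of -5.35 to -4.97 and did not separate by slide.

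**Figure D4:**
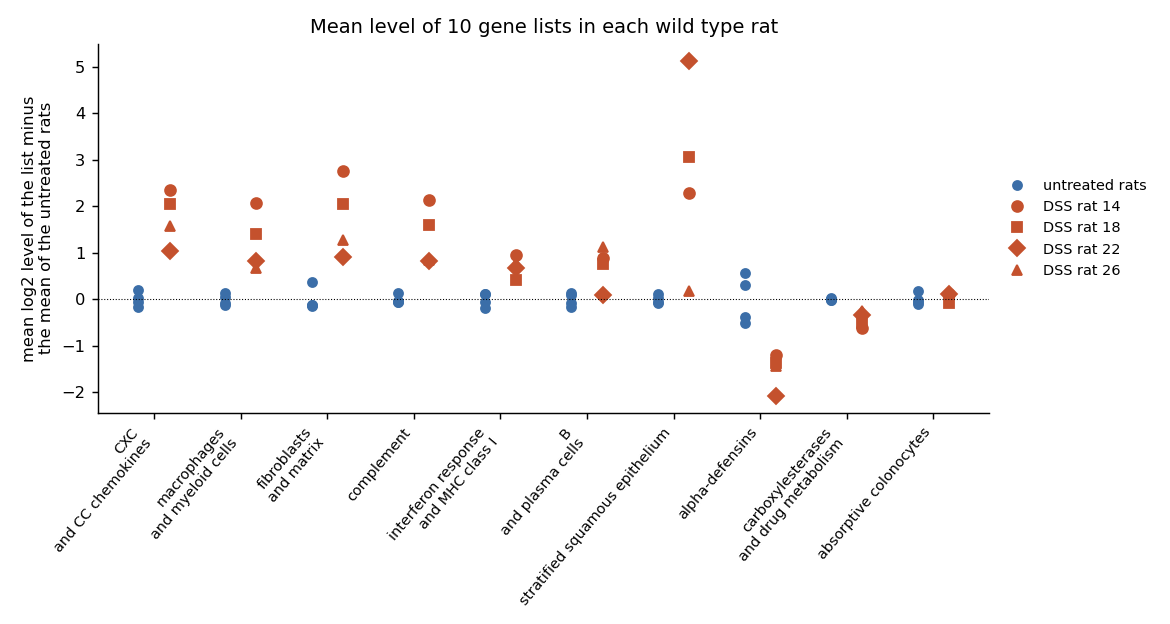
Mean log2 level of the measured members of 10 lists in each rat, minus the mean of the 4 untreated rats (blue, untreated; red, DSS, 1 marker per rat). The squamous list spreads the DSS rats the most, with rat 22 on top and rat 26 at the level of the untreated rats, whereas for chemokines, macrophages and complement all 4 DSS rats lie above the 4 untreated rats.

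Falls were fewer, and esterases and conjugating enzymes stood out among them. Of 53 measured genes of drug metabolism, 7 were called lower (13.2%, against 0.534% of all genes) and none higher, and between 5 and 8 with 1 rat left out. The list was chosen with earlier results of these data known, so these shares are no test of enrichment. Among them were Ces1c, Ces1d, Ces1e and Ces1f, carboxylesterases of 1 gene family that hydrolyse lipid esters and drugs and whose probes can share signal. Ces1e lay at -1.24, -0.50, -1.03 and 0.08 in untreated and -4.10, -3.65, -3.55 and -2.61 in DSS rats (log2 difference -2.81, SE 0.53, adjusted p = 0.00969), Ces1d at -1.37, -1.43, -1.90 and -0.75 and -4.24, -4.35, -3.70 and -2.77 (log2 difference -2.40, SE 0.51, adjusted p = 0.0174), and Ces1c and Ces1f fell by 2.64 and 1.41 on the log2 scale (adjusted p = 0.0119 and 0.00402). The call of Ces1d was lost without DSS rats 14 or 18 or untreated rat 25. Glutathione transferases Gsta3 and Gsta1 fell by 1.65 and 1.12 (adjusted p = 0.0102 and 0.0182). Cmahp, a sialic acid hydroxylase locus and no esterase, had the widest gap of the list, at 1.76, 2.19, 1.94 and 2.05 in untreated rats and -3.0, -2.73, -0.56 and -0.87 in DSS rats (log2 difference -3.77, SE 0.53, adjusted p = 0.00258, 13.7-fold lower). Rats 14 and 18 were the lowest of the 4, and slide values were -4.84 on slide 1 and -2.71 on slide 2. Aadac, arylacetamide deacetylase, another esterase, was well above background in all untreated rats, at -4.91, -4.10, -4.29 and -3.48, and in no DSS rat, at -8.78, -8.09, -8.20 and -7.25 (at least 5.73-fold lower, adjusted p = 7.11e-04).

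Further leading falls had no list of their own. Zfp503, a zinc finger repressor, lay at -3.65, -2.74, -3.06 and -2.93 and -5.61, -5.95, -4.75 and -5.85 (log2 difference -2.44, SE 0.38, adjusted p = 0.00417). Fabp6, the bile acid carrier of ileum, fell from -3.03 to -2.17 in untreated to -4.64 to -3.38 in DSS rats (adjusted p = 0.0136), and Bambi, a decoy receptor for transforming growth factor beta, from -1.53 to -1.07 in untreated to -4.29 to -2.46 in DSS rats (adjusted p = 0.0249). Rragd, a GTPase that signals amino acids to mTOR, had log2 difference -1.85, Plpp7 -1.71, the troponin Tnni1 -2.20 and the hair keratin Krt85 -2.20. Of these, the calls of Bambi, Rragd, Tnni1 and Krt85 were lost without DSS rats 14 or 18 and without untreated rat 17 among others. The call of Fabp6 was lost without untreated rat 17 and that of Plpp7 without DSS rat 14. Efhc2, Gspt2, Calca and 1700020N15Rikl were well above background in all untreated rats and in no DSS rat, at least 3.52-fold, 1.99-fold, 1.60-fold and 1.47-fold lower (adjusted p = 0.0117, 0.0176, 0.0304 and 0.0452). Calca, which encodes the neuropeptide CGRP, kept its call in 1 of the 8 fits with 1 rat left out, as did 1700020N15Rikl. Gspt2 lost its call without DSS rat 18 or untreated rat 25. The other probe of Calca differed by 0.20, the other way, and was not called.

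Genes of lipid mediators and retinoids were called in small numbers. Alox12, a lipoxygenase of platelets and epithelia, was above background in the DSS rats and in none of the untreated rats, at -7.81, -7.34, -7.66 and -8.56 and -3.27, -3.99, -5.25 and -4.95 (at least 5.86-fold higher, adjusted p = 0.00154). With Pla2g2a and the prostaglandin D synthase Hpgds (1.30, above background on 1 untreated array) it made 3 called of 24 on the list of prostaglandin synthesis and receptors. That list also holds lipoxygenases, and the share was 12.5%, against 3.17% of all genes called higher. With normexp 1 was called. The cyclooxygenases Ptgs1 and Ptgs2 were not called. Aldh1a3, which makes retinoic acid, lay at -6.95, -8.20, -7.90 and -8.27, with 1 of 4 arrays above background, and -1.35, -2.20, -4.07 and -4.33 (log2 difference 4.84, SE 0.53, adjusted p = 9.77e-04), and Cyp26b1, which degrades it, at -8.76, -8.80, -9.11 and -8.67 and -3.0, -4.60, -5.44 and -8.64 (at least 2.82-fold higher, adjusted p = 0.0426). Rat 26 was at the untreated level for Cyp26b1 and well above it for Aldh1a3, and the call of Cyp26b1 was lost in 7 of the 8 fits with 1 rat left out. These were the 2 called of 23 retinoid genes (8.70%, against 3.17% of all genes called higher). With normexp, a common floor, quantile normalization or the wild type arrays alone, 1 was called. Of 36 fatty acid oxidation genes 1 was called (2.78%), Angptl4, an inhibitor of lipoprotein lipase (2.19, adjusted p = 0.00862), and not with normexp. Of 22 immediate early genes 1 was called (4.55%), the AP-1 subunit Fosl1 (3.61, adjusted p = 0.0333). It was not called without DSS rats 14 or 18 or any 1 of the untreated rats, or with normexp. The shares of the fatty acid oxidation and immediate early lists were near the 3.17% of all genes called higher. Other rises that led the table were Cpxm2, a carboxypeptidase-like protein (log2 difference 3.38, SE 0.47, adjusted p = 0.00246), Igfbp4, a binding protein of insulin-like growth factors (log2 difference 3.10, SE 0.46, adjusted p = 0.00323), the receptor adaptor Sh3kbp1 (log2 difference 3.06, SE 0.39, adjusted p = 0.00178), the amino acid transaminase Bcat1 (at least 10.6-fold, adjusted p = 0.00222), the anthrax toxin receptor Antxr1 (at least 3.02-fold, adjusted p = 0.00222, its other probe not called at 0.19) and the transcription factor Ets1 (at least 2.96-fold, adjusted p = 0.00193).

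Alpha-defensins are antimicrobial peptides of Paneth cells and neutrophils, and Defa8 and Defa9 fell after DSS in wild type rats and rose in Pirc rats. Defa8 lay at -3.19, -1.52, -2.84 and -1.89 in untreated and -5.80, -7.63, -7.97 and -6.38 in DSS wild type rats, of which 2 were above background (log2 difference -4.58, SE 0.63, adjusted p = 0.00226). Defa9 lay at -2.94, -1.66, -2.73 and -1.72 and -4.41, -5.05, -5.60 and -4.26 (log2 difference -2.57, SE 0.54, adjusted p = 0.0180), and its call was lost without DSS rat 18 or untreated rats 17 or 25. RatNP-3b, Defa6 and Defa24 had differences of -2.23, -2.79 and -2.46 with adjusted p of 0.0581, 0.122 and 0.288, and Defa6 was not well above background in any DSS wild type rat, so its difference is set against background. In all, 2 of 9 measured members were called lower (22.2%), with a median of -2.23, and 1 with normexp, with a median of -0.39. The remaining 4, Defa5, Defa11, Np4 and Defal1, had differences of 0.08, 0.51, 0.23 and 0.16 and were not called, and all of them but Defa11 were at background on all 8 arrays. These genes are close copies of each other, and their probes can share signal. In Pirc rats the DSS difference was 5.04 for Defa8, 5.01 for Defa9, 4.86 for RatNP-3b and 6.34 for Defa6. The difference between the 2 DSS effects was -9.62 for Defa8 (SE 0.89, adjusted p = 3.75e-04) and -7.57 for Defa9 (SE 0.77, adjusted p = 8.36e-04).

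Across the array, 13 of 30367 probes (0.0428%) were called for the difference between the DSS effects of wild type and Pirc rats. Beside 4 alpha-defensins they were Tac1, the substance P precursor (2 probes), the zinc transporter Slc30a2, the mesoderm factor Tbxt, the signalling adaptor Tifa, the water channel Aqp4, the ribosomal protein Rpl39l1 and 2 probes without a gene name here. All 13 had a higher DSS effect in Pirc rats. In wild type rats Tac1, Tbxt, Tifa and Rpl39l1 had DSS differences of -0.23, 0.30, -0.43 and -0.31, none called, and Tbxt and Rpl39l1 were not well above background on any wild type array, while in Pirc rats they were 5.93, 5.30, 2.14 and 3.03. Slc30a2 lay at -5.91, -5.46, -5.07 and -5.06 in untreated and -7.01, -7.29, -7.20 and -5.79 in DSS wild type rats, of which 1 was well above background (log2 difference -1.44, adjusted p = 0.0502). It rose by 2.94 in Pirc rats.

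**Figure D5:**
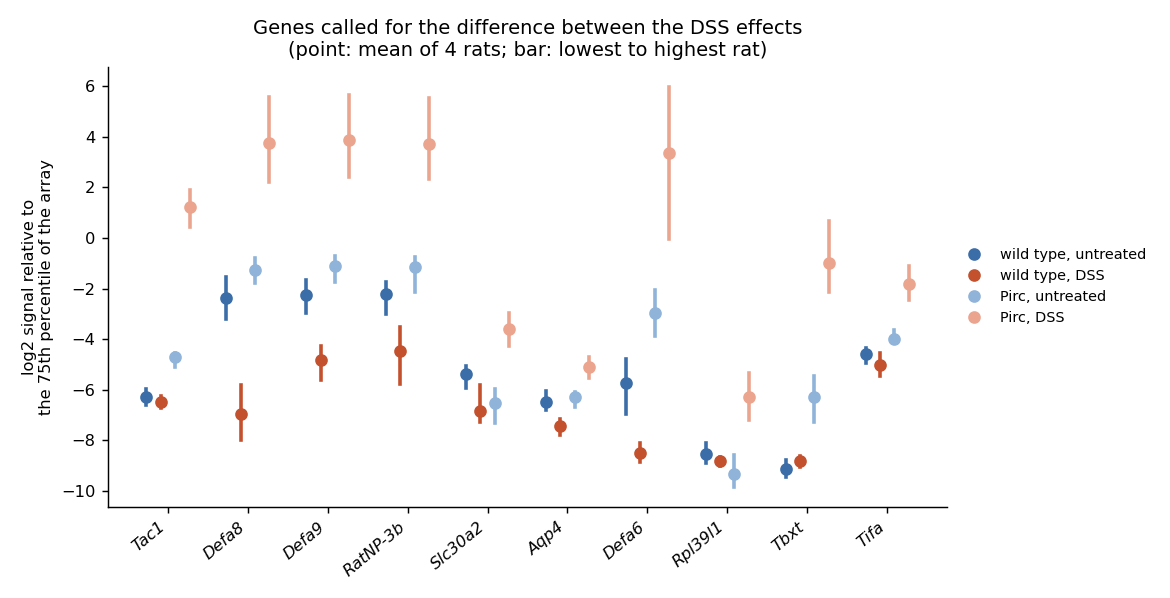
Log2 signal relative to the 75th percentile of the array for the 10 named genes called for the difference between the DSS effects, as the mean of 4 rats (point) and the lowest to highest rat (bar), in wild type (dark) and Pirc rats (light), untreated (blue) and DSS (red). In each gene the Pirc DSS rats lie above the Pirc untreated rats, and for Defa8 the wild type DSS rats lie below the wild type untreated rats.

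Most wild type calls had a counterpart in Pirc rats, whose 8 arrays share no animal with the wild type arrays. Fitted on the 8 wild type arrays alone, 402 probes (1.32%) were called, and fitted on the 8 Pirc arrays alone, 1955 (6.44%). Both fits called 285 probes, which is 70.9% of the wild type calls and 14.6% of the Pirc calls, and 282 of them had the same direction. On the 1495 probes called higher in Pirc rats, the median difference of a wild type DSS rat from the mean of the untreated wild type rats was 1.80 in rat 14, 1.37 in rat 18, 0.97 in rat 22 and 0.77 in rat 26, and that of the untreated rats themselves ran from -0.20 to 0.13. On the 460 probes called lower in Pirc rats it was -0.80, -0.70, -0.48 and -0.46 in the same order, against -0.12 to 0.11 in untreated rats. All 4 DSS rats were thus displaced in the direction of the Pirc calls, in the order 14, 18, 22 and 26.

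The cyclic AMP phosphodiesterases, on which the study centred, were not called. Pde4b was not well above background on any of the 8 arrays, at -8.73, -8.28, -8.75 and -8.27 in untreated and -7.11, -7.15, -8.21 and -7.98 in DSS rats (log2 difference 0.89, adjusted p = 0.163), so no fold is given for it. Pde4a, which was well above background throughout, had a log2 difference of -0.03 (SE 0.10, adjusted p = 0.923) and Pde4d one of 0.03 (SE 0.25, adjusted p = 0.959). None of 18 phosphodiesterase genes and none of 15 clock genes was called by limma. At an unadjusted limma p under 0.05 there were 4 and 0, against 5106 of all 30367 probes. Apc itself lay at -3.39, -3.35, -2.94 and -3.32 in untreated and -2.82, -2.79, -3.11 and -3.24 in DSS rats (log2 difference 0.26, SE 0.15, adjusted p = 0.439).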

How the data were processed

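RNA of normal distal colon was labelled with Cy3 and hybridised to single-colour Agilent arrays, 8 on each of 2 slides. The authors deposited Feature Extraction 10.7.3.1 output, whose processed signal is a linear intensity with background removed and no normalization between arrays. Of 62976 spots per array, 4259 controls were left out. Log2 of the signal minus log2 of the array's 75th percentile was the level of a spot, and the unflagged spots of each probe were averaged (30367 probes; 25 values had flagged spots only, which were kept). Probes were named by matching RefSeq accessions to a table of GRCr8 genes, which named 18006 probes for 15159 symbols and left 12361 unnamed; the array was designed on another build, so no probe positions are given. A gene was represented by its brightest probe over the 16 arrays. Among the 562 called genes, 63 had another probe that was not called and 0 had one called the other way.

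Groups were compared with limma 3.58.1 in R 4.3.3 (16 arrays, 1 mean per group, eBayes, Benjamini-Hochberg over all probes). Labels name separate rats. The fit was first tested on simulated data with known changes. The gene lists and the comparison were chosen with earlier results of these data known. Named were the 12 largest rises and falls without overlap and well above background on all 8 arrays, up to 8 genes above background in 1 group only (of 37 and 6), the 4 largest calls of each of 33 lists, and Pde4a, Pde4b, Pde4d and Apc; other genes in the text are list members. Symbols beginning with LOC or RGD were not named, and a few list members are counted but not reported singly here. Alternatives were other scalings and background corrections, filters, blocks for slide and array row, other thresholds, and each rat left out. Between 71.6% and 76.9% of the spots of a wild type array were well above background and 0 were saturated; the number of arrays limits the precision.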

Additional observations from a re-analysis of the deposited data

Results flagged for a closer look

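Of the 220 groups of 4 rats checked over the named genes, 10 held a rat whose gap to the next rat was above Dixon's 95% critical value, where chance alone gives about 1 in 20 groups, or 11. In untreated rats, rat 25 stood high for C1s (-4.80, the others -6.84 to -6.54), Tnc (-7.10, the others -9.31 to -9.01), Ccn2 (-5.75, the others -9.11 to -8.63) and Flna (-3.27, the others -5.31 to -5.26) and low for Ido1 (-6.29, the others -5.62 to -5.50). Untreated rat 13 stood high for Mcpt1 (-5.55, the others -6.73 to -6.59). Untreated rat 21 stood low for Sprr3 (-5.30, the others -5.15 to -5.12) and high for Apc (-2.94, the others -3.39 to -3.32). Among DSS rats, rat 14 stood high for Mnda (-4.11, the others -5.20 to -5.03) and Itgam (-5.28, the others -6.39 to -6.24).

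The DSS effect differed between wild type and Pirc rats by the interaction test for 13 probes. As wild type effect minus Pirc effect on the log2 scale, the values were -9.62 for Defa8, -7.57 for Defa9, -7.09 for RatNP-3b, -9.13 for Defa6, -6.16 and -5.47 for the probes of Tac1, -5.00 for Tbxt, -4.39 for Slc30a2, -3.34 for Rpl39l1, -2.57 for Tifa and -2.15 for Aqp4. The 2 unnamed probes had -6.05 and -3.27. In wild type rats Defa6 and Aqp4 were at background after DSS and Tbxt and Rpl39l1 in both groups, so for these the values are set against background. Defa8 was well above background in 2 of the DSS wild type rats, so its value is partly set against background. Slc30a2, the Tac1 probe at -5.47 and the unnamed probe at -3.27 were each well above background in 1 DSS wild type rat. Their values are partly set against background as well. At an unadjusted p under 0.05, 3234 of 30367 probes differed.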

How the results depend on the processing

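The number of probes called was 841 (719 higher, 122 lower). It was 548 (447 higher) with a common floor for dim probes, 235 (199 higher, 36 lower) with normexp, 402 (326 higher, 76 lower) with the wild type arrays alone and 1417 (1196 higher, 221 lower) at an adjusted p of 0.20. Quantile normalization gave 213 lower calls and no minimum change 273. With 1 rat left out, the calls ran from 375 (without DSS rat 14) to 1178 (without DSS rat 26), higher calls from 316 to 955 and lower calls from 59 to 223. Blocks for slide, array row or both gave 874, 814 and 859. The 13 calls for the difference between genotypes became 56 with the floor, 31 with normexp, 170 at an adjusted p of 0.20 and 8 without moderation, and ran from 8 to 35 with 1 rat left out. The causes were not tested. Of the 106 called genes named, 55 kept the call without each rat in turn, all 106 had the same sign within both slides, and none changed sign under any alternative. Genes without overlap between the groups must have the same sign on both slides. The call selects for such separation, so the shared sign is no separate support for the calls. The log2 change of Pde4d, which was not called, changed sign with quantile normalization (-0.0922), and with 1 rat left out it ran from -0.117 to 0.168. Normexp left 53 of the 106 called, the wild type arrays alone 64, and the floor 82 of the 104 it retained. No paired analysis was possible because rat numbers differ between the groups. Signal near background limits the folds of dim genes.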

Other observations

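Of the 562 called genes, 309 had a probe well above background in every wild type rat, whereas 128 genes called higher were not well above background in any untreated rat and 12 called lower were not in any DSS rat.

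Markers of the small intestine were present in the distal colon of both groups. Apoa4, an apolipoprotein of enterocytes, lay at -2.17, -4.68, -3.01 and -4.99 in untreated and -1.17, -1.56, -1.53 and -0.91 in DSS rats (limma log2 difference 2.42, adjusted p = 0.234), so the groups did not overlap and the test did not pass. Alpi, an intestinal alkaline phosphatase, lay at -1.35, -1.67, -0.91 and -1.68 and 0.25, 0.21, -0.87 and -0.15 (1.26, adjusted p = 0.159). Fabp2 and Lct of the same set differed by 0.66 and 0.10 and were not called (limma adjusted p = 0.448 and 0.815). Defb1, a beta-defensin of epithelia, followed the order of the squamous genes, with -8.81, -8.86, -9.23 and -8.70 in untreated and -6.46, -4.46, -0.76 and -8.82 in DSS rats (3.78, adjusted p = 0.0911). In fatty acid oxidation genes rat 26 was the highest DSS rat for 25 of 36, and in proliferation genes for 29 of 33.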
